A study of Mus musculus with 15 samples.

Results

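The mRNA levels of the proteins that switch Ras on and off in T cells were followed through 9 mouse genes. They encode the exchange factors Rasgrp1, Rasgrp2, Sos1 and Sos2, the adaptor Grb2, and the GTPase-activating proteins Rasa1, Rasa2, Rasa3 and Nf1. All probe sets annotated to exactly 1 of these genes were taken, without regard to their values. In the CD4+ T-cell arrays these were 25 of 45101 probe sets and 9 of the 18194 genes named there. In the thymocyte arrays they were 19 of 22690 probe sets and 9 of 12394 genes.

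The arrays were Affymetrix expression arrays of 129/SJ mice, with WT animals as littermates of N-ras KO or of H-ras KO mice. The labels give an age of 6 to 20 weeks for all arrays. The methods give 6 to 20 weeks for the mice of the CD4+ T cells and 6 weeks for those of the thymocytes. CD4+ T cells of the spleen, sorted from WT and N-ras KO mice, were kept overnight in T-cell growth medium without antibodies (unstimulated) or with 1 µg/ml each of anti-CD3 and anti-CD28 (stimulated, a low-level TCR stimulus), which gave 4 groups of 3 arrays. Thymocytes were taken directly, without treatment, and gave 1 array each for WT, for N-ras KO and for H-ras KO. Both knockouts are germline deletions, so every cell of the animal lacks the gene. Per the methods, the 3 arrays of a CD4+ T-cell group came from different mice, and the thymocyte arrays were not repeated with further mice. The sources used here do not settle whether the stimulated and unstimulated arrays of a number share a mouse.

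Ras proteins are bound to GDP when inactive and to GTP when active. Guanine nucleotide exchange factors load them with GTP, and GTPase-activating proteins speed the hydrolysis that turns them off. In T cells, antigen receptor engagement activates phospholipase C gamma, whose product diacylglycerol recruits Rasgrp1 to membranes, while phosphorylated Lat binds Grb2 and brings Sos1 to the same membranes.

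The deposited log2 values hold differences and no brightness. In each genotype the unstimulated CD4+ T-cell arrays had a median of 0 on every one of the 45101 probe sets, and the 3 thymocyte arrays had a median of 0 on each of the 22690. Members can therefore not be ranked by level, the unstimulated cells of the 2 genotypes cannot be compared, and the identity of the cells cannot be checked by the level of their defining markers. A value of a stimulated array is relative to the unstimulated arrays of its own genotype.

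The targeted gene went against the labels of 2 replicate numbers on most of its arrays and probe sets. Nras probe set 1454060_a_at lay at -2.68 and -3.04 in the unstimulated and stimulated arrays labelled WT 1, and at 2.04 and 2.09 in those labelled N-ras KO 3. Its other WT arrays ranged from -0.10 to 0.28, and its other N-ras KO arrays from -0.04 to 0.51. Probe set 1422688_a_at had the same order, with -1.23 and -1.23 in WT 1 against 0 to 0.65 in the other WT arrays, and 1.21 and 0.80 in N-ras KO 3 against -0.65 to 0.40. On 1422687_at N-ras KO 3 read 1.70 and 1.21 against -0.46 to 0.04, and the unstimulated WT 1 array read -1.61. The stimulated WT 1 array was not low there, at -0.14 among the -0.19 to 0.38 of the other WT arrays.

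Results are given for the labels as deposited, with values without WT 1 and N-ras KO 3 beside those of the Rasgrp1 and Rasgrp2 results that moved most. A list of 5 TCR response genes (Il2ra, Cd69, Egr2, Nr4a1 and Irf4) rose in 6 of 6 stimulated arrays over their unstimulated partner. The mean rise was 1.38 to 2.11 log2 in WT pairs and 1.91 to 3.17 log2 in N-ras KO pairs. For the mean of both genotypes 8 of its 8 probe sets passed the study's thresholds (background 1.41%) and 0 an adjusted p of 0.05. The median difference of responses, WT minus N-ras KO, was -0.92 log2, with 2 of 8 lower past the thresholds (background 1.29%). In stimulated WT minus N-ras KO the median was -0.78 log2, with 2 of 8 lower and 1 higher (background 6.9%). The part of this list in the members' values was not tested.

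The promoters of Rasgrp2, Rasa1 and Rasa3 are shown because the largest stimulation difference fell to Rasgrp2, whose probe sets disagreed with each other and whose annotation holds a pair of start sites, and because Rasa1 and Rasa3 moved most alike. The sequences are those of RefSeq on GRCm38.p6, from 250 bases before to 50 bases after the start, 5′ to 3′ on the gene's strand. Capitals mark each GC box (GGGCGG) and each ETS-type site (CCGGAAG) found on either strand, with overlapping matches run together.
Rasgrp2, first start, chr19:6399625-6399924, plus strand: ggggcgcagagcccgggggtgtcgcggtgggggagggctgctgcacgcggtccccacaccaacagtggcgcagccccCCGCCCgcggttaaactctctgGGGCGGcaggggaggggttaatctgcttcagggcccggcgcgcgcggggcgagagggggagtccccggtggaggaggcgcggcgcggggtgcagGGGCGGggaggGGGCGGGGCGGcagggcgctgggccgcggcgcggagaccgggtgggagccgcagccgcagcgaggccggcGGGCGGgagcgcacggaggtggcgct
Rasgrp2, second start, chr19:6401455-6401754, plus strand: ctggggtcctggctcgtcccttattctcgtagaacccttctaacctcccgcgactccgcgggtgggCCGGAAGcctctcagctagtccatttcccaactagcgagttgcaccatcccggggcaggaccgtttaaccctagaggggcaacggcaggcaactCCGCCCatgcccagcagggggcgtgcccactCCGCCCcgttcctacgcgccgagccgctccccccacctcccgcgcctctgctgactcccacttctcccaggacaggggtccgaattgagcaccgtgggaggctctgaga
Rasa1, chr13:85289437-85289736, minus strand: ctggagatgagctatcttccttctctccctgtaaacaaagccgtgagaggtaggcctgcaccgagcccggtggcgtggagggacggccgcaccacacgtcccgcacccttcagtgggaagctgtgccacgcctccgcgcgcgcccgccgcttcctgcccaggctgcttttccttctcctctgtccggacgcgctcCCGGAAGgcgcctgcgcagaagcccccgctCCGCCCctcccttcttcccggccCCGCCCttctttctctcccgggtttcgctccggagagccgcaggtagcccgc
Rasa3, chr8:13677538-13677837, minus strand: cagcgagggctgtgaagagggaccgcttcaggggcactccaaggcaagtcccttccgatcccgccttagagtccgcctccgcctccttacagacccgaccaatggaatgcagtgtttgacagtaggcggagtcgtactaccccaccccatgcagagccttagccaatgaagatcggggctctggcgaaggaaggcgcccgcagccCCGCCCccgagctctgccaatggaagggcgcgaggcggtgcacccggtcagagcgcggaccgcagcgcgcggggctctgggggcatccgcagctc

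All 9 genes matched the promoter table, with 11 promoters in all, since Rasgrp2 and Grb2 have 2 each. The first Rasgrp2 promoter held 6 matches to the GC box and the second 2, while Rasa1 held 2 and Rasa3 1. A GC box was present in 8 of the 11 promoters, against 35.7% of all 32851 promoters of the same length. The ETS-type letters occurred in 3 of the 11, in the second Rasgrp2 promoter, Rasa1 and Nf1, against 8.86% of all promoters. Neither the AP-1 letters TGACTCA, found in 5.2% of all promoters, nor the E-box CACGTG, found in 7.15%, were in any of the 11. Median GC content was 68.7% in the 11 and 52.7% in all promoters. These matches describe letters in the window only.

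Across the 25 probe sets, no member passed an adjusted p of 0.05 (limma, Benjamini-Hochberg over 45101 probe sets) in any comparison, and the background was 0% as well. At the study's own thresholds, an unadjusted p under 0.05 and at least 1.5-fold, 1 of the 25 fell with stimulation as the mean of both genotypes, where 1.41% of all probe sets passed. None of the 25 passed in WT cells (background 1.04%) and 1 of 25 in N-ras KO cells (background 2.34%). The 25 members had 0, 1 and 1 unadjusted p under 0.05 in these comparisons, against 520, 1162 and 923 of all probe sets in WT, N-ras KO and the mean. A single call among 25 is of the order that such a background gives.

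Rasgrp1 is the main diacylglycerol-responsive exchange factor of thymocytes and T cells. Its probe set 1421176_at read 0, -1.01 and 0.30 in unstimulated WT arrays 1, 2 and 3 and -0.39, -0.35 and 1.14 in stimulated ones. In N-ras KO arrays it read 0.60, -0.81 and 0, and then -0.16, 0.40 and -1.77 after stimulation. Stimulated and unstimulated arrays overlapped in both genotypes. The mean difference was -0.03 log2 (standard error 0.45, 95% confidence interval -1.04 to 0.97), with 3 of 6 pairs of equal number higher. Without WT 1 and N-ras KO 3 it was 0.49 log2 (standard error 0.52). Probe set 1434295_at gave a much narrower estimate of 0.01 log2, with an interval of -0.31 to 0.33. The other 2 probe sets differed by 0.16 and 0.23 log2 with 3 and 4 of 6 pairs higher. A rise of 1.5-fold lay outside the interval of 1434295_at and inside those of the other 3.

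Rasgrp2, a calcium- and diacylglycerol-regulated exchange factor best known for activating Rap1, gave the largest difference of the members. Probe set 1442264_at read -0.71, 0.80 and 0.00 in unstimulated WT arrays and -0.67, -1.37 and -1.53 in stimulated ones. It read 0, -1.49 and 1.87 in unstimulated N-ras KO arrays and -1.34, -1.94 and -1.45 in stimulated ones. Stimulated WT arrays 2 and 3 lay below all 3 unstimulated WT arrays, while WT 1 differed by 0.04, and in N-ras KO the unstimulated array 2 lay among the stimulated arrays. The probe set fell by 1.46 log2 in the mean of both genotypes, a 2.76-fold difference (standard error 0.50, 95% confidence interval -2.58 to -0.35, unadjusted p = 0.0149, adjusted p = 1.00 from limma). Of the 6 pairs 5 were lower (exact two-sided sign-flip p = 0.0625, where 0.03125 is the smallest possible).

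In N-ras KO cells the same probe set fell by 1.70 log2 (unadjusted p = 0.0365), and in WT cells its difference was -1.22 log2 (unadjusted p = 0.114, limma). The N-ras KO value rested on number 3, whose pair differed by -3.33 log2. Without N-ras KO 3 it was -0.89 log2 (unadjusted p = 0.18), and without both WT 1 and N-ras KO 3 the mean difference was -1.37 log2 (unadjusted p = 0.011). The latter choice gave a WT difference of -1.85 log2, which passed the study's thresholds (unadjusted p = 0.0135 from limma, 0.00395 with the replicate block). Leaving out WT 2 or WT 3 ended the call, with an unadjusted p of 0.0695 and 0.0547 for the mean, and so did leaving out both numbers 3, with -0.98 log2 and 0.0885.

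Rasgrp2 probe set 1438932_at was lower in 6 of 6 pairs. Its pair differences were -0.54, -0.59 and -0.39 in WT and -0.36, -0.15 and -0.93 in N-ras KO. Its arrays spanned -0.94 to 1.41 in WT and -0.51 to 1.29 in N-ras KO, so stimulated and unstimulated arrays overlapped while every pair moved down. The mean difference was -0.49 ± 0.26 log2 (SD, n = 6 pairs, exact two-sided sign-flip p = 0.03125). Any probe set with 6 of 6 pairs in 1 direction has this p. Since 1438932_at was singled out after its values were seen, the p adds nothing to the count of pairs. Probe set 1438933_x_at, which followed 1438932_at across the 12 arrays with r = 0.94, differed by -0.53 log2, with 5 of 6 pairs lower.

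Among the 25 probe sets 2 were lower in 6 of 6 pairs, against 2.13% of all probe sets, and none was higher in 6 of 6. The second was Rasa1 1426478_at, with pair differences of -0.09, -0.42 and -0.50 in WT and -0.61, -0.03 and -0.19 in N-ras KO, a mean of -0.31 log2 (exact two-sided sign-flip p = 0.03125). Here too the p is fixed by the 6 of 6 pairs for which the probe set was singled out. After a further quantile normalization of the values no member had 6 of 6 pairs in 1 direction, and with array medians set to 0 there was 1 such probe set. Under a block by replicate number within genotype, Rasgrp2 1438932_at had an unadjusted p of 0.00802 and Rasa1 1426478_at of 0.0425, with adjusted p = 0.715 and 0.75 from limma. Under this replicate block 4 of 25 members had an unadjusted p under 0.05 for the mean of both genotypes, where the background was 6.59%, and 1 of 25 also reached 1.5-fold (background 2.74%). All 4 differences were negative, the other two being Rasgrp2 1442264_at and Sos1 1421886_at.

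**Figure D1:**
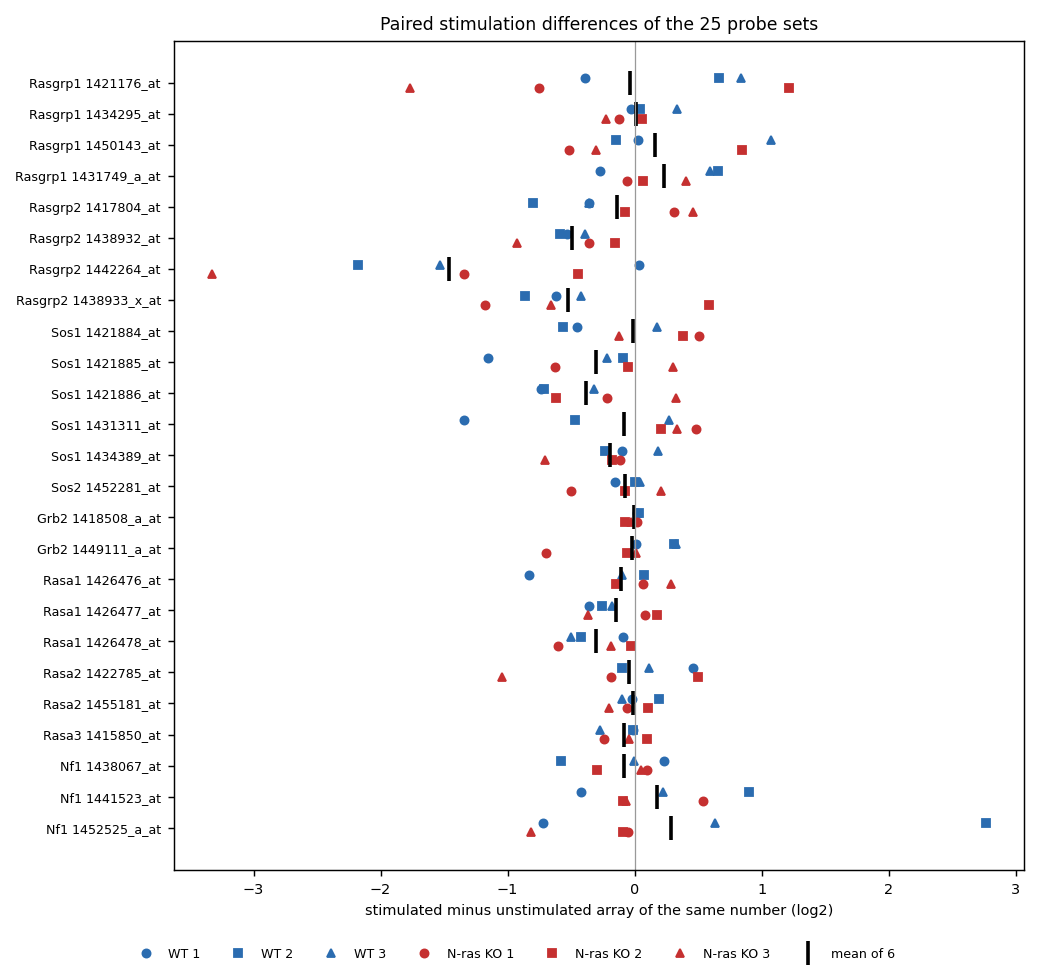
Difference in log2 expression between the stimulated and the unstimulated array of the same number for the 25 probe sets, with WT pairs in blue, N-ras KO pairs in red, a marker shape for each number and a black bar for the mean of 6. Rasgrp2 1438932_at and Rasa1 1426478_at have all 6 points below 0, and Rasgrp2 1442264_at has the lowest mean, -1.46.

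Sos1, the ubiquitous exchange factor that Grb2 brings to the receptor complex, has 5 probe sets here, and they did not move together. Probe set 1421884_at read 0, 0.77 and -0.60 in unstimulated and -0.46, 0.20 and -0.42 in stimulated WT arrays. In N-ras KO it read 0, 0.00 and 0.32, and then 0.51, 0.38 and 0.20. The groups overlapped in WT and in N-ras KO, with a mean difference of -0.01 log2 (95% confidence interval -0.53 to 0.50). Probe set 1421886_at was lower in 5 of 6 pairs, with -0.74, -0.72 and -0.32 in WT and -0.22, -0.62 and 0.33 in N-ras KO. Its WT difference of -0.59 log2 had an unadjusted p of 0.512, and 0.0303 with the replicate block, which made it the only WT call among the 25 members under that block (background 2.8%, adjusted p = 1.00 from limma). In N-ras KO cells the block left Rasgrp2 1442264_at as the 1 call of 25 (background 4.91%).

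Sos2, the close relative of Sos1, had 1 probe set. It read -0.10, 0.02 and 0 in unstimulated and -0.25, 0.02 and 0.05 in stimulated WT arrays, and 0, 0.21 and -0.35 followed by -0.50, 0.13 and -0.14 in N-ras KO. The difference as the mean of both genotypes was -0.08 log2, with a 95% confidence interval of -0.42 to 0.27. A change of 1.5-fold lay outside this interval. In N-ras KO cells alone the interval was -0.61 to 0.37, and a fall of 1.5-fold lay inside it.

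Grb2, the SH2 and SH3 adaptor that links phosphorylated receptors and Lat to Sos, gave close pairs on 1 of its 2 probe sets. Probe set 1418508_a_at read 0, 0.04 and -0.43 in unstimulated and 0.02, 0.08 and -0.40 in stimulated WT arrays. In N-ras KO it read -0.14, 0 and 0.49, and then -0.12, -0.07 and 0.46. Each pair of this probe set agreed to within 0.075 log2 while the numbers lay up to 0.60 log2 apart. The mean difference was 0.00 log2 (SD over 6 pairs 0.04), with an interval of -0.41 to 0.40 in the fit without pairs and of -0.21 to 0.20 with the replicate block. Probe set 1449111_a_at had pair differences of 0.01, 0.31 and 0.33 in WT and -0.70, -0.06 and 0.01 in N-ras KO, a mean of -0.02 log2 (SD over 6 pairs 0.37).

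Rasa1, the p120 RasGAP that binds phosphorylated receptors through its SH2 domains, had the widest range of the printed probe sets. Probe set 1426476_at read 0, -0.60 and 1.96 in unstimulated and -0.83, -0.53 and 1.86 in stimulated WT arrays. In N-ras KO it read 0, 0.28 and -2.74, and then 0.07, 0.13 and -2.45. Both arrays numbered WT 3 were high and both numbered N-ras KO 3 were low, whatever the stimulation. The stimulation difference of -0.11 log2 accordingly had an interval of -1.81 to 1.60.

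Rasa3, a GTPase-activating protein for Ras and Rap1 that binds phosphoinositides, followed the same order of arrays. It read -0.07, 0 and 0.91 in unstimulated and -0.08, -0.01 and 0.64 in stimulated WT arrays, and 0.27, 0 and -1.20 followed by 0.02, 0.10 and -1.25 in N-ras KO. WT 3 was again the highest and N-ras KO 3 the lowest of its genotype. Across the 12 arrays Rasa1 and Rasa3 had r = 0.96 for these probe sets, while Grb2 ran against both with r = -0.98. These correlations are a description, since arrays of a number deviated together and the arrays numbered 3 hold both extremes of each of the 3 genes.

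Rasa2, a GTPase-activating protein of the GAP1 family, read -0.80, 0 and 0.09 in unstimulated and -0.35, -0.10 and 0.21 in stimulated WT arrays on probe set 1422785_at. In N-ras KO cells it read 0.55, 0 and -0.32, and then 0.37, 0.50 and -1.37. The groups overlapped. Its second probe set, 1455181_at, had the narrowest interval of the members, -0.28 to 0.26 around a difference of -0.01 log2. The pair correlated with r = 0.23 across the arrays.

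Nf1, neurofibromin, is a large GTPase-activating protein and tumor suppressor. Probe set 1438067_at read -0.17, 1.22 and 0 in unstimulated and 0.06, 0.64 and 0.00 in stimulated WT arrays, and -0.38, 0 and 0.03 followed by -0.28, -0.30 and 0.08 in N-ras KO. WT 2 stood above the other arrays in both conditions, and the difference was -0.08 log2 (95% confidence interval -0.64 to 0.47). The 3 probe sets of Nf1 correlated with r of 0.05 to 0.56, those of Rasa1 with 0.76 to 0.97, those of Sos1 with -0.37 to 0.65 and those of Rasgrp2 with -0.30 to 0.94.

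**Figure D2:**
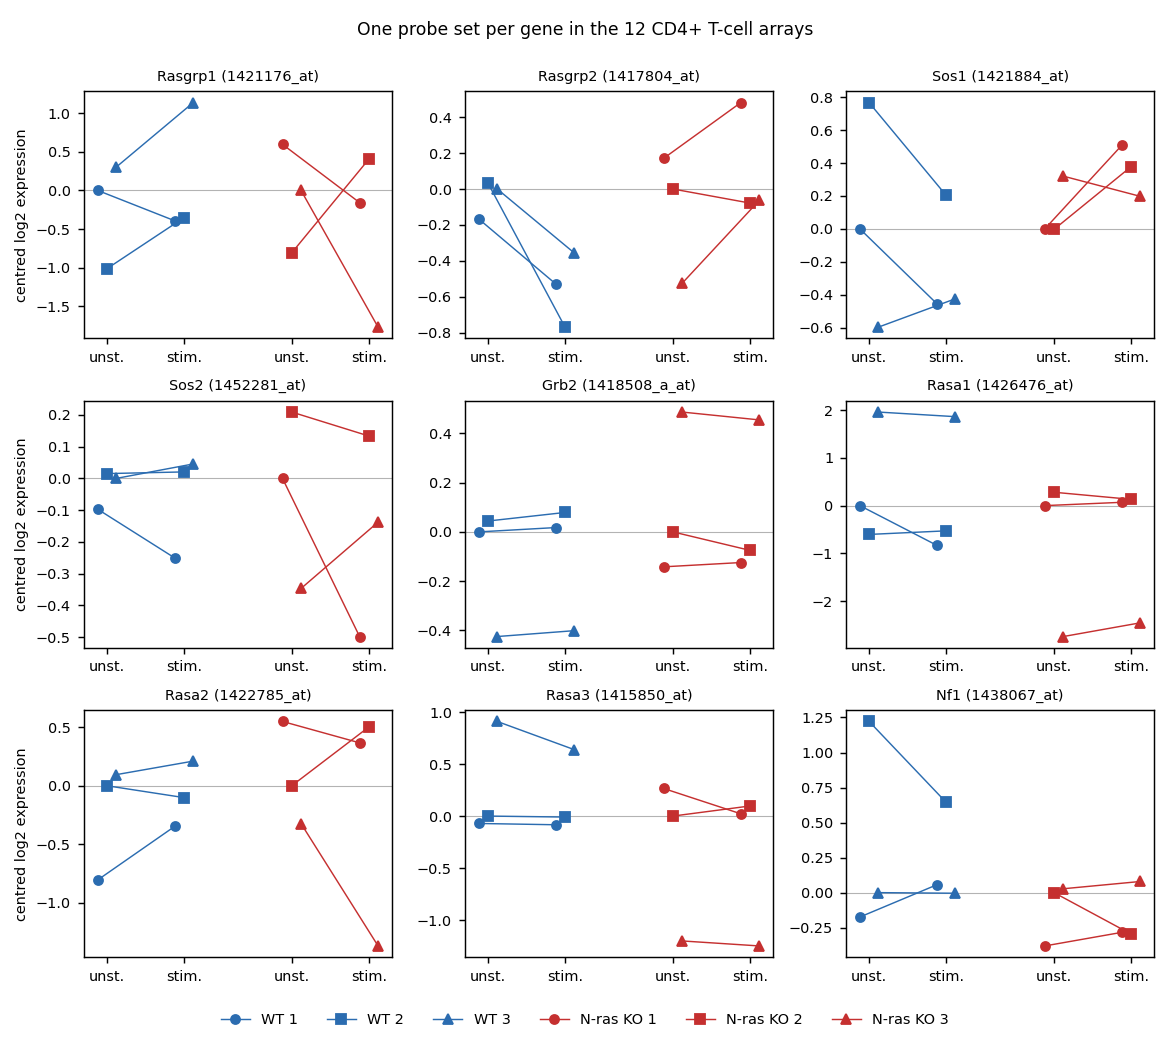
Centred log2 expression of 1 probe set per gene in unstimulated (unst.) and stimulated (stim.) CD4+ T cells, with WT in blue, N-ras KO in red and lines joining arrays of the same number. Grb2, Rasa1 and Rasa3 have number 3 apart in both genotypes, and the 3 WT lines of Rasgrp2 1417804_at fall.

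As the mean of both genotypes 20 of the 25 members lay below 0 after stimulation, against 48.4% of all probe sets, with a median of -0.08 and 0.01 log2. Without WT 1 and N-ras KO 3 it was 14 of 25. Of the 16 probe sets of exchange factors and Grb2, 13 were below 0, and of the 9 of GTPase-activating proteins 7. None of these shares was tested.

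Whether stimulation acted differently in the 2 genotypes was asked by the difference of the responses, WT minus N-ras KO. No member passed the study's thresholds (background 1.29%). The largest difference was 1.21 log2, for Nf1 1452525_a_at (standard error 1.14, unadjusted p = 0.31 from limma), whose WT 2 pair rose by 2.76 log2. The members' lowest unadjusted p was 0.0561 (limma), for Rasgrp2 1417804_at. This probe set read -0.17, 0.03 and 0 in unstimulated and -0.53, -0.77 and -0.36 in stimulated WT arrays. In N-ras KO it read 0.17, 0 and -0.52, and then 0.48, -0.08 and -0.06. Every stimulated WT array lay below every unstimulated one, and the N-ras KO arrays overlapped.

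The WT pairs of this probe set differed by -0.36, -0.80 and -0.36 and the N-ras KO pairs by 0.31, -0.08 and 0.46. The responses differed by -0.74 log2 (standard error 0.34, 95% confidence interval -1.50 to 0.02, adjusted p = 1.00 from limma). With the replicate block within genotype the unadjusted p was 0.0222 and the adjusted p 0.961, and 1 of 25 members passed the study's thresholds (background 4.12%). With this block and without WT 1 and N-ras KO 3 the difference was -0.69 log2 with an unadjusted p of 0.085 (limma), and 0 of 25 passed. The other 3 Rasgrp2 probe sets differed in their responses by -0.22 to 0.48 log2, within 1 standard error of 0. The highest of these, 1442264_at, turned from 0.48 to -0.96 log2 without WT 1 and N-ras KO 3 (standard error 0.77, unadjusted p = 0.259 from limma, 0.0968 with the block).

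Stimulated WT and stimulated N-ras KO cells were also compared directly, each relative to the unstimulated cells of its own genotype, whose own error is not part of the standard error. One member of 25 passed the study's thresholds, against a background of 6.9%. It was Rasgrp2 1417804_at, at -0.66 log2 in [WT] vs. [N-ras KO] (1.58-fold, standard error 0.24, 95% confidence interval -1.20 to -0.13, unadjusted p = 0.0203, adjusted p = 0.59 from limma). All 3 stimulated WT arrays lay below the 3 stimulated N-ras KO arrays. Without WT 1, without WT 2 or without N-ras KO 1 its unadjusted p was 0.0536, 0.094 and 0.0817, and without both WT 1 and N-ras KO 3 the difference was -0.76 log2. The other Rasgrp2 probe sets, 1438932_at, 1442264_at and 1438933_x_at, differed by -0.04, 0.38 and -0.06 log2 in the same comparison. Across the 12 arrays 1417804_at correlated with them at r = -0.25, -0.11 and -0.30, while they correlated with each other at 0.64 to 0.94. The difference is thus one of a single probe set and not of the gene.

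The member GTPase-activating proteins lay on 1 side in this comparison with the labels as deposited. All 9 of their probe sets were above 0, from 0.09 to 0.92 log2 with a median of 0.40, while 46.5% of all probe sets were above 0, with a median of -0.03. The 16 probe sets of exchange factors and Grb2 were split 8 and 8. None of the 9 had an unadjusted p under 0.05. The 10 probe sets of other Ras GTPase-activating proteins had a median of -0.01 log2 in the same comparison. The 7 probe sets of the T cell genes Cd3d, Cd3e, Cd3g, Cd4, Cd5 and Thy1 had a median of 0.39 log2. The CD8 and NK list had a median of 0.40 and the macrophage and monocyte list of 0.16 log2. Medians were -0.31 for the B cell, -0.78 for the TCR response, -1.14 for the immature thymocyte and -1.72 log2 for the neutrophil list. The part of these lists in the members' values was not tested. Without both numbers 3, a choice made after the data were seen, 4 of the 9 were above 0 with a median of -0.01, and Rasa1 1426476_at turned from 0.92 to -0.78 log2. Without N-ras KO 3 alone 6 of 9 were above 0, and without WT 1 and N-ras KO 3 it was 7 of 9 with a median of 0.26. With array quality weights it was 6 of 9, and without WT 2 alone 7 of 9.

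The replicate numbers carried most of the spread. For each probe set the sum of squares within genotype was divided into a part between numbers, a part for stimulation and a rest. A genotype has more numbers than conditions, which favours the part between numbers even without any effect. The shares are therefore best read beside those of all probe sets. The median share between numbers was 71.9% for the 25 members and 66.3% for all probe sets, and the median share of stimulation 7.54% and 8.70%. Grb2 1418508_a_at stood at 99.4% between numbers, Rasa3 at 97.8% and Rasa1 1426476_at at 97.7%. The numbers outweighed stimulation in 23 of 25 members, which was 92%, against 91.5% of all probe sets. The exceptions were Rasgrp2 1417804_at and 1442264_at, with 44.7% and 47.0% for stimulation.

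Numbers 3 of the 2 genotypes often stood on opposite sides, over all probe sets as well as in the members. In 5 of the 25 probe sets both N-ras KO 3 arrays were below and both WT 3 arrays above all other arrays of their genotype (background 11.5%). These were Sos1 1421886_at, Rasa1 1426476_at and 1426477_at, Rasa2 1422785_at and Rasa3. The opposite order held for 4 probe sets (background 18.5%), both of Grb2 and Rasgrp2 1438932_at and 1438933_x_at. The mean of both Rasa1 1426476_at arrays was 1.91 for WT 3 and -2.60 for N-ras KO 3, against -0.57 to 0.21 for the other numbers.

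Some marker lists moved with these numbers too, and others did not. The mean over 4 immature thymocyte genes (Rag1, Rag2, Dntt and Ptcra) was -1.68 and -1.64 in the WT 3 arrays and 1.89 and 0.69 in the N-ras KO 3 arrays, against -0.79 to 0.65 in the others. The mean of 6 T cell genes (Cd3d, Cd3e, Cd3g, Cd4, Cd5 and Thy1) was 0.49 and 0.38 in WT 3 and -0.50 and -0.81 in N-ras KO 3. The mean of 4 B cell genes was 1.06 and 1.63 in N-ras KO 3 and -0.57 to 0.65 in all other arrays. The mean of 4 macrophage and monocyte genes was 0.69 and 1.64 in WT 3, -0.05 and -0.58 in N-ras KO 3, and -0.73 to 0.90 in the others. The mean of 4 CD8 and NK genes was 0.01 and -0.23 in WT 3, 0.25 and -0.05 in N-ras KO 3, and -1.03 to 0.11 in the others. In bulk RNA fewer cells of a type and less RNA per cell cannot be told apart, and the part of these lists in the members' values was not tested. The neutrophil list (Camp, Ngp, Ltf, S100a8 and S100a9) ranged from -2.22 to 1.61 over the 12 arrays, and its stimulated minus unstimulated difference was 1.16 and 1.73 in N-ras KO 1 and 2 and -0.81 to 0.28 in the other pairs.

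**Figure D3:**
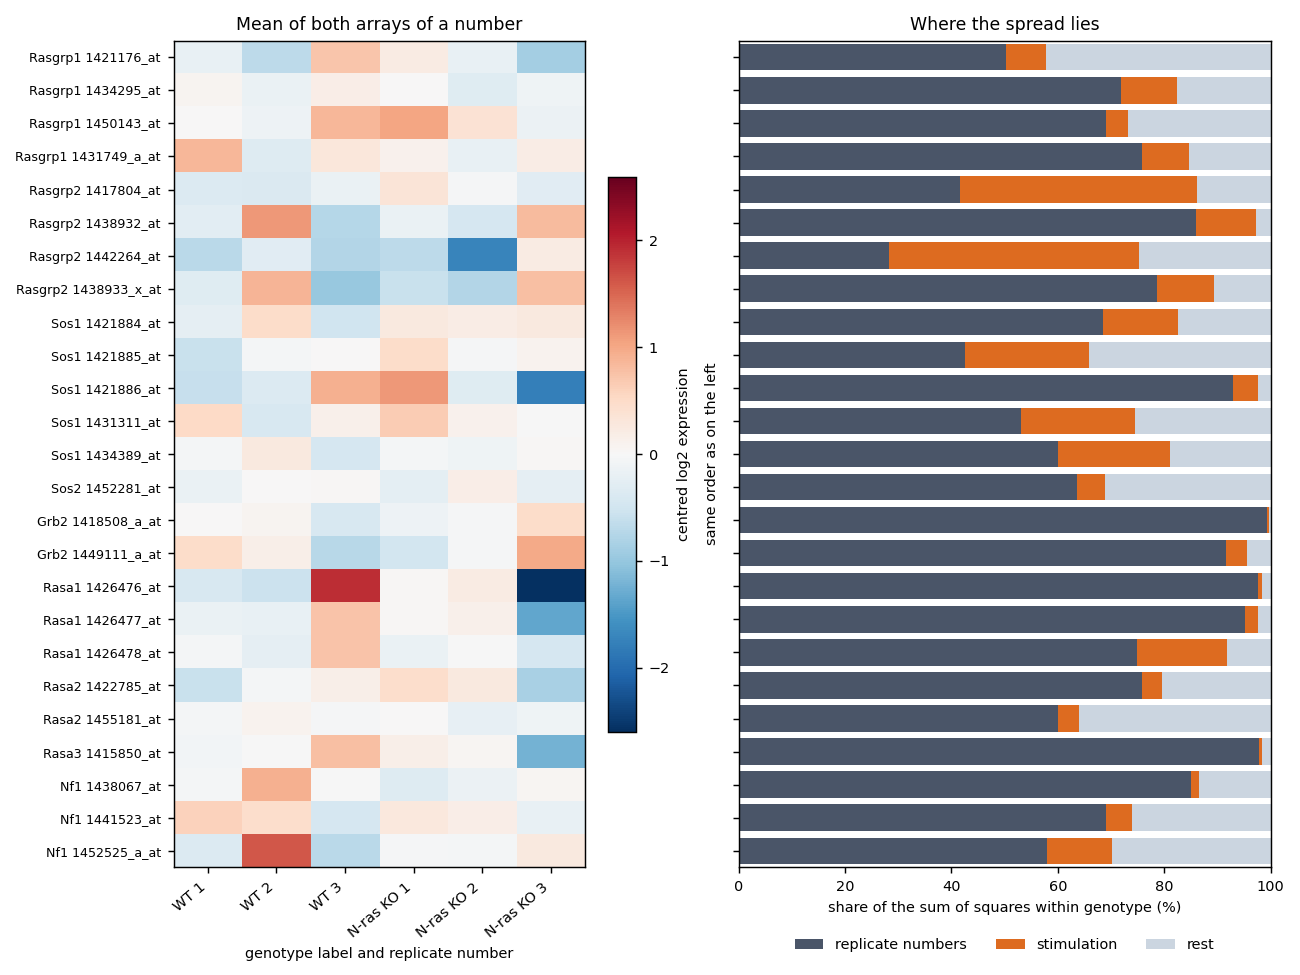
The heat map gives the mean centred log2 expression of the stimulated and unstimulated array of each number for the 25 probe sets, and the bars give the share of the sum of squares within genotype that lies between replicate numbers, with stimulation and in the rest, in percent. Rasa1 1426476_at runs from 1.91 in WT 3 to -2.60 in N-ras KO 3, and only 2 Rasgrp2 probe sets have a longer bar for stimulation than for numbers.

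The 3 probe sets most like Rasgrp1 1421176_at across the 12 arrays were those of Idua (r = 0.91), Wars (r = 0.91) and Gabrr2 (r = 0.90). Those most like Rasgrp2 1417804_at were Creb3 (r = 0.91), Ttc13 (r = 0.90) and Lztfl1 (r = 0.88). They are the highest of all named probe sets over 12 arrays and no more than a description.

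The other exchange factors and regulators of the pathway were given by lists. Of the 9 probe sets of Rasgrp3, Rasgrp4, Rasgrf1 and Rasgrf2, 1 rose with stimulation in the mean of both genotypes at the study's thresholds and none fell (background 1.41%). It was Rasgrp3 1438031_at, a diacylglycerol-binding exchange factor well known in B cells, which was higher in 6 of 6 pairs by a mean of 0.75 log2 (standard error 0.24, unadjusted p = 0.0101, adjusted p = 1.00 from limma). The mean of 4 B cell marker genes differed by -0.04 to 0.57 log2 in the same pairs and was higher in 5 of 6, and its part in the Rasgrp3 value was not tested. None of the 10 probe sets of 5 other GTPase-activating proteins passed in any comparison, and neither did any of the 8 of 4 Ras GTPase genes.

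Of 29 probe sets for 14 adaptors and enzymes between the TCR and the exchange factors, 1 fell and none rose as the mean of both genotypes (background 1.41%). It was Plcg1 1442963_at, the phospholipase that makes the diacylglycerol Rasgrp1 binds, at -0.76 log2 with 5 of 6 pairs lower (unadjusted p = 0.0276, adjusted p = 1.00 from limma). In stimulated cells 1 of the 29 and 1 of the 9 passed, where the background was 6.9%. The adaptor Shc1 1422853_at was higher in [WT] vs. [N-ras KO] by 0.82 log2 (unadjusted p = 0.0408, adjusted p = 0.637 from limma). Rasgrf2 1440918_at, a calcium-regulated exchange factor, differed by -1.54 log2 there (unadjusted p = 0.0252, adjusted p = 0.605 from limma). A second Rasgrf2 probe set, 1440849_at, differed by 1.33 log2 with stimulation in N-ras KO cells, as 1 of the 9 (background 2.34%, unadjusted p = 0.0471, adjusted p = 1.00 from limma). The replicate block ended this call, with an unadjusted p of 0.0939.

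Thymocytes of the 3 genotypes were compared without replicates, so differences are those of single arrays and no test was possible. WT minus N-ras KO was 1.81, 2.46 and 2.38 log2 on the 3 Nras probe sets, and WT lay within 0.28 log2 of H-ras KO on each. Of the 19 member probe sets 1 was at least 1.5-fold apart in [WT] vs. [N-ras KO] (background 2.64%) and none in [WT] vs. [H-ras KO] (background 2.97%). The 1 probe set was Rasgrp1 1431749_a_at, which read -0.40 in WT, 0.21 in N-ras KO and 0 in H-ras KO thymocytes. WT minus N-ras KO was -0.61 log2 (1.53-fold), just past 1.5-fold, and WT minus H-ras KO was -0.40 log2.

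The other 2 Rasgrp1 probe sets also had lower values in WT than in N-ras KO thymocytes, with -0.22 log2 for 1421176_at and -0.37 log2 for 1450143_at. Against H-ras KO they read 0.13 and 0.07 log2. For Rasgrp2 1417804_at, WT minus N-ras KO was -0.27 log2 and WT minus H-ras KO was -0.38 log2. Both Grb2 probe sets were above 0 in both comparisons, at 0.11 and 0.35 log2 for WT minus N-ras KO and 0.08 and 0.09 log2 for WT minus H-ras KO.

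Rasa3 lay on opposite sides, at -0.30 log2 for WT minus N-ras KO and 0.24 log2 for WT minus H-ras KO, and H-ras KO minus N-ras KO was -0.54 log2. The 3 Rasa1 probe sets were between -0.14 and 0 in both comparisons, Rasa2 was at 0.02 log2 in both, and Sos2 at -0.18 and -0.06 log2. The Nf1 probe sets were at -0.25 and 0.17 log2 against N-ras KO. In all, 11 of 19 were below 0, 4 above and 4 at 0 in [WT] vs. [N-ras KO]. Those 4 were at 0 on all 3 arrays, 2 of Rasgrp2 and 2 of Sos1, which was also the case for 23.7% of all probe sets, and they hold no comparison. Of all 22690 probe sets 7334 were below 0, 8091 above and 7265 at 0 in [WT] vs. [N-ras KO]. In [WT] vs. [H-ras KO] 7 members were below 0, 7 above and 5 at 0, against 7474, 7242 and 7974 of all probe sets.

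In the same arrays the WT values of all 5 neutrophil genes exceeded those of either knockout by 1.5-fold or more, with medians of 1.45 and 2.12 log2, and their part in the members' values was not tested. The 6 T cell genes had medians of 0.00 and 0.03 log2. The 5 B cell probe sets had medians of -0.38 log2 for WT minus N-ras KO and 0.62 log2 for WT minus H-ras KO. Of these 5, 1 was lower by 1.5-fold or more in the former and 3 were higher in the latter. The TCR response list had medians of -0.03 and 0.22 log2. The part of these lists was not tested either. Among the pathway lists WT minus N-ras KO was 1.06 and 1.11 log2 on both probe sets of the adaptor Shc1, and -0.59 log2 for the ubiquitin ligase Cbl.

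**Figure D4:**
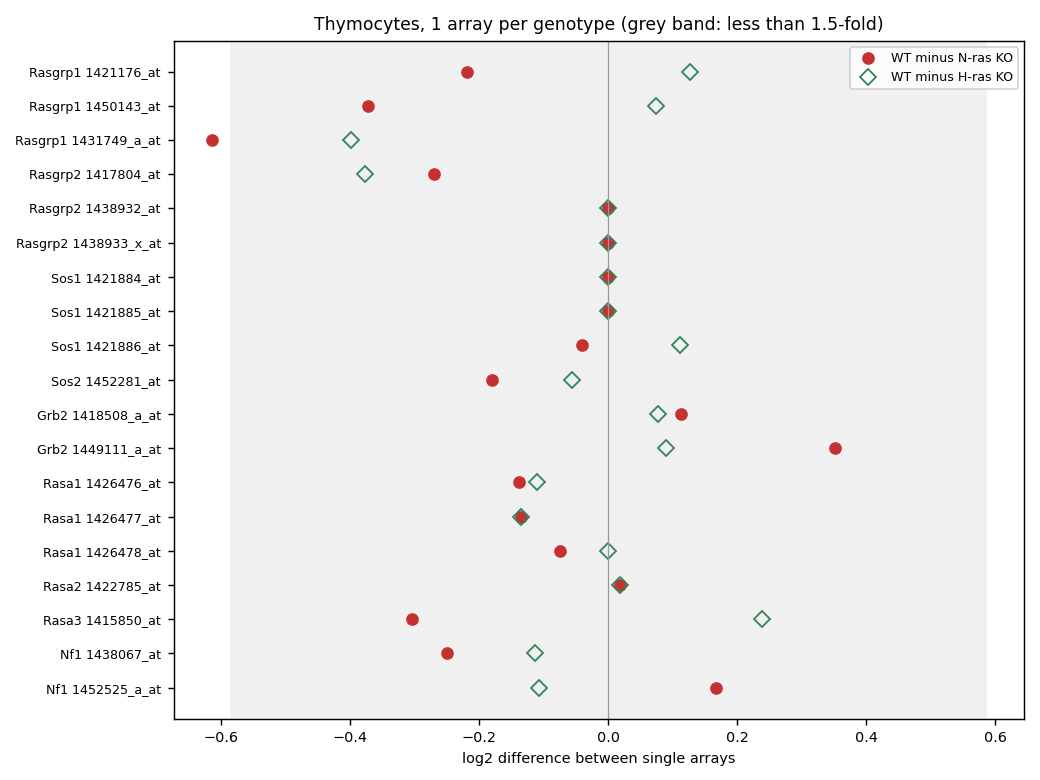
Difference in log2 expression between single thymocyte arrays for the 19 probe sets, with WT minus N-ras KO as filled circles, WT minus H-ras KO as open diamonds and a grey band for less than 1.5-fold. Only Rasgrp1 1431749_a_at lies outside the band, at -0.61 for WT minus N-ras KO.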

How the data were processed

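The authors deposited log2 values. Per the methods, probe sets were summarized by RMA in GeneSpring with quantile normalization, and each probe set was then shifted so that control samples had a median of 0. The submitters' notes name RMA with no version. Labelled cRNA was hybridized, with an added amplification where the yield was low, and the arrays concerned are not named in the sources used here. The methods name 1 array type, while the 2 matrices differ in their probe sets. Gene names came from the platform annotation in GEO. Of the CD4+ T-cell probe sets 34958 had 1 gene symbol, 932 several and 9211 none, and in thymocytes 20393, 691 and 1606. Precision is limited by how many arrays there are.

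The main fit was limma 3.58.1 (R 4.3.3) on a means model of the 4 groups over all 12 CD4+ T-cell arrays, two-sided, with Benjamini-Hochberg adjustment over 45101 probe sets. The study's thresholds were an unadjusted p under 0.05 and 1.5-fold. The methods' t-test is unpaired, so the main fit has no block. Stimulated and unstimulated arrays of the same number and genotype deviated together (r of 0.361 to 0.738 in 6 pairs), and those of different genotypes did not (r of -0.117 to -0.621), so a replicate block within genotype was run beside it. The methods say both that sorted cells were divided between the conditions and that each condition had a mouse of its own in every repetition. Exact sign-flip tests over 6 pairs cannot go below 0.03125, and 3 against 3 arrays not below 0.1. The fit was tested on simulated data.

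The members and lists were chosen with earlier results of these data known. All member probe sets were kept without a filter. Values by array are given for 1 probe set per gene, taken by type and lowest ID, for those with an unadjusted p under 0.05 and for those 1.5-fold apart in thymocytes. Rasgrp2 1438932_at and Rasa1 1426478_at were singled out after their values were seen.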

Additional observations from a re-analysis of the deposited data

Results flagged for a closer look

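One result met a rule for a closer look. The response of Rasgrp2 1417804_at to stimulation differed between the genotypes by -0.74 log2 (WT minus N-ras KO) in the fit with the replicate block within genotype, with an unadjusted p of 0.0222 and an adjusted p of 0.961 from limma. Stimulation lowered it in 3 of 3 WT pairs and in 1 of 3 N-ras KO pairs. The fit without the block gave an unadjusted p of 0.0561. With the block and without WT 1 and N-ras KO 3 the difference was -0.69 log2, with an unadjusted p of 0.085 (limma).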

How the results depend on the processing

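Of 744 values for single probe sets under the alternatives, 716 kept their direction and their side of the study's thresholds. Of the others, 17 no longer passed, 9 newly passed and 2 reversed, where a change of sign within 1 standard error of 0 was counted as no change. The values cover 1 probe set per gene and Rasgrp2 1442264_at, not all members. Most had not passed in the main fit, so they could not stop passing. The 17 that no longer passed were all of Rasgrp2, among the few values that passed in the main fit. They were 1442264_at in N-ras KO cells and in the mean of both genotypes, and 1417804_at in stimulated WT minus N-ras KO. Both reversals came from leaving out WT 3 and N-ras KO 3, chosen after seeing the data, in stimulated WT minus N-ras KO: Rasa1 1426476_at became -0.78 and Rasa3 -0.11 log2. The cause was not tested. Counts of member probe sets past the study's thresholds, all small, moved as follows.

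For stimulation in WT cells the count of 0 became 1 with the replicate block within genotype, 2 with array quality weights, 1 in a fit of the own groups, 1 without WT 1 and N-ras KO 3, and 3 without these and with the replicate block. In N-ras KO cells the count of 1 became 0 with the methods' t-test, quantile normalization, array quality weights, the own groups, without WT 1 and N-ras KO 3, and without both numbers 3. The mean of both genotypes went from 1 to 0 with quantile normalization and without both numbers 3. The difference of responses went from 0 to 1 with the replicate block and with array quality weights. Stimulated WT minus N-ras KO went from 1 to 0 at 2-fold and to 3 without both numbers 3 (Rasgrp2 1417804_at, Grb2 1449111_a_at and Rasa1 1426476_at). Pairs all in 1 direction went from 2 probe sets to 0 with quantile normalization, 1 with array medians at 0, and 5 without WT 1 and N-ras KO 3 or without both numbers 3. The last count is over fewer pairs, which agree more easily, so it cannot be set beside the 2. The thymocyte count in [WT] vs. [N-ras KO] went from 1 to 0 with quantile normalization, at 2-fold and with plain probe sets only.

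Leaving out 1 replicate number at a time gave 0 to 1 for stimulation in WT, in N-ras KO and in the mean, 0 to 0 for the difference of responses, 0 to 1 for stimulated WT minus N-ras KO and 2 to 4 for pairs. The counts for pairs are over fewer pairs here too, and cannot be set beside the count with all pairs. A replicate block by number across genotypes changed no count. The alternatives without WT 1 and N-ras KO 3 with the block, and without both numbers 3, were added after seeing the data. The methods' t-test and the own groups give no value for the mean or the difference of responses, and the block within genotype none for stimulated WT minus N-ras KO.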
